A study of Caenorhabditis elegans with 2 samples.

Results

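The 44 genes described here encode enzymes of glycolysis, gluconeogenesis, the pyruvate dehydrogenase complex, the tricarboxylic acid (TCA) cycle and the glyoxylate cycle of Caenorhabditis elegans, with glycogen and trehalose synthesis added. They were listed by name from 19973 nuclear protein-coding genes. The list was chosen with earlier results of these data known, so shares of genes are given as descriptions. The series mapped where DAF-16, a FOXO transcription factor held out of the nucleus by signalling from the insulin receptor DAF-2, sits on chromatin, by immunoprecipitation and sequencing. The description names an antibody to GFP, while the antibody field reads daf-16, taken here as the target. Both biological replicates, a single group of 2, were whole L4 hermaphrodites taken 54 hours after synchronisation as starved L1 larvae. All animals were of strain ZM7247, with the daf-16 allele mu86, the reduced-function daf-2 allele e1370 on chromosome III, and the transgene hpSi4 on chromosome II, in which the myo-3 promoter drives GFP::daf-16a. This promoter is that of a body wall muscle myosin gene, so by genotype the tagged protein was made in muscle while chromatin came from every tissue of the animal. A second label describes a GFP-FLAG tag on the C-terminal side of DAF-16, whereas the genotype writes GFP first. No untreated, wild-type or input library was analysed here, so the genes are set beside all nuclear protein-coding genes and no test between conditions was possible.

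Glycolysis splits glucose into pyruvate in the cytosol, and gluconeogenesis runs most of the same enzymes in the other direction with a few steps of its own. Pyruvate enters the mitochondrial TCA cycle through the pyruvate dehydrogenase complex, and the glyoxylate cycle bypasses the carbon-losing steps of the TCA cycle so that fat-derived carbon can be kept for sugar synthesis. In C. elegans the glyoxylate cycle is known from dauer larvae and starved larvae, and mutants with low insulin signalling are known for stores of glycogen, trehalose and fat.

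DAF-16 peaks lay at the starts of 16 of the 44 genes (36.4%, Wilson 95% interval 23.8 to 51.1), against 6.25% of all nuclear protein-coding genes. Such a gene had the summit of an IDR peak between 1000 bp upstream and 200 bp downstream of its most upstream 5' end, here called its promoter window. IDR peaks are the authors' list of 2563 peaks that passed a threshold on the irreproducible discovery rate, and they were the 2563 strongest of 30000 candidates called on both replicates pooled. A pooled candidate of any strength was found in the window of 31 genes (70.5%), against 32.9% of all genes, and was matched in both replicates, with summits within 100 bp, in 26 genes (59.1%), against 15.6%. Among genes with a candidate, 16 of 31 had an IDR peak in the window, against 19.0% of all genes with a candidate. Counting also the body of the gene, 19 genes (43.2%) held an IDR summit, against 8.90%. The median gene length was 3056 bp in these genes and 2027 bp in all genes, so the last count covers more sequence per gene here. The intervals describe shares of genes and not variation between animals.

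**Figure D1:**
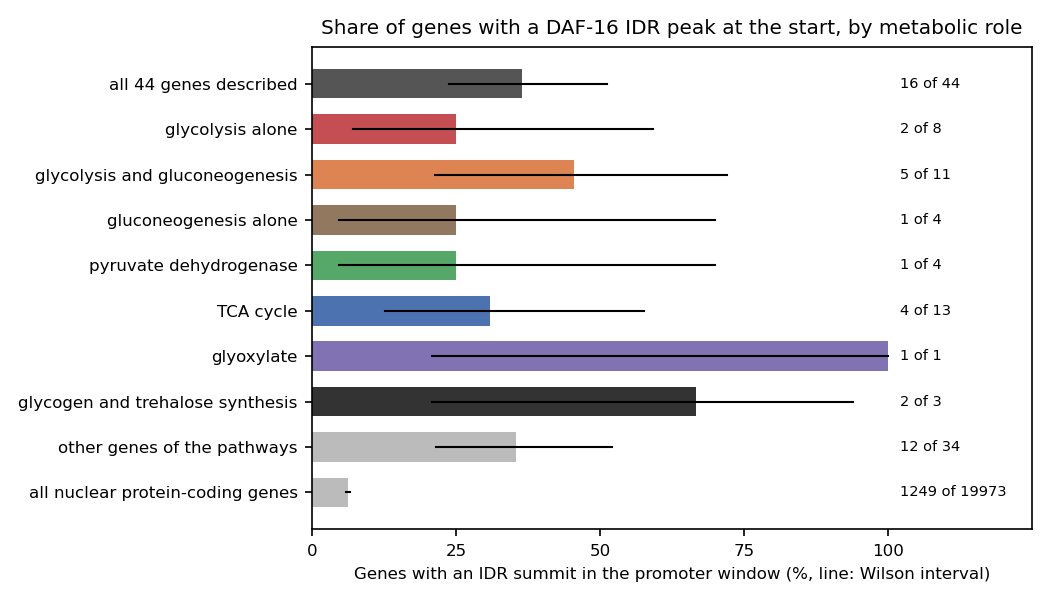
Percentage of genes with an IDR summit in the promoter window, by metabolic role, for the 34 other genes of the same pathways and for all nuclear protein-coding genes; bars give the share and lines the Wilson 95% interval. The bar of the 44 genes reaches 36.4% and that of all genes 6.25%, and the intervals of the roles overlap each other.

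Each peak carries a signal, the value given by the authors' peak caller, and the sources used here do not give its scale. It has no SD and is compared within a list, except where the replicate lists are set beside each other. The IDR peaks ran down to a signal of 60.5, with a median of 94.2 over the whole list. The 31 genes with a candidate had a median top signal of 60.8, against 23.0 for all genes with a candidate. Among genes with an IDR peak in the window the medians were 92.5 in these genes and 95.8 in all genes.

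The strongest peaks of the 44 genes show what sequence lay under the summits. Of the 8 strongest, 6 are printed from the RefSeq sequence of WBcel235 (the assembly named ce11), on the strand of the gene and 5' to 3'. They reach up to 50 bp to each side of the summit. Those of idhb-1 and aco-2 are shorter because they stop at the start of an annotated gene. Capitals mark TCTCTC, the other strand of GAGAGA, the only searched motif found within these stretches. They are idhg-1 (+ strand, chrIII:4568494-4568594), idhb-1 (− strand, chrX:14174064-14174133), the distal peak of gsy-1 (− strand, chrII:12878838-12878938), icl-1 (− strand, chrV:728036-728136), tps-1 (− strand, chrX:17474652-17474752) and aco-2 (+ strand, chrIII:7973387-7973453).
idhg-1: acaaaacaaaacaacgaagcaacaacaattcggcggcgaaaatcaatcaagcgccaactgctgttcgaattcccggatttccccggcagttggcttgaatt
idhb-1: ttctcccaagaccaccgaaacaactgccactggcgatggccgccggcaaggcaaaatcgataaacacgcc
gsy-1: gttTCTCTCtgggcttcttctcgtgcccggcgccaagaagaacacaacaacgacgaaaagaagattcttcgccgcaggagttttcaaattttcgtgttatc
icl-1: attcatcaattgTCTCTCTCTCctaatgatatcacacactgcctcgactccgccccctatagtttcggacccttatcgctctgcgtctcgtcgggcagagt
tps-1: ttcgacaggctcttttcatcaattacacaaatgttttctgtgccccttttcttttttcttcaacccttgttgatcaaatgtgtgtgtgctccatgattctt
aco-2: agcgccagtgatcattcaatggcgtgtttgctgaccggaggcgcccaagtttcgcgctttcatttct

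Of the 8 genes used in glycolysis alone, 2 had an IDR peak in the promoter window, both of them hexokinases, the enzymes that phosphorylate glucose. hxk-2 had the second highest signal of all 44 genes, 200.2 in the pooled list, 101.3 in the replicate 1 list and 101.6 in the replicate 2 list. Its summit lay 169 bp upstream of the gene, between genes, and also 248 bp from the start of the divergent neighbour cdk-9, so it cannot be given to either gene by position. At hxk-3 the pooled signal was 90.7, with 34.3 in replicate 1 and 51.9 in replicate 2, and the summit lay 31 bp downstream of the 5' end in the 5' untranslated region. Stretches of 31 bases found again elsewhere in the genome make up 28.4% of hxk-2 and 32.5% of hxk-3, but neither of their IDR peaks holds such a stretch. hxk-1, the third hexokinase, had no pooled candidate in its window and a weak one, of signal 24.5, at the far end of the gene, 7187 bp from its start.

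pyk-1, a pyruvate kinase gene of the last glycolytic step, had an IDR summit 237 bp into the gene, in an intron and just outside the window. Its pooled signal was 118.4, with 65.2 in replicate 1 and 51.8 in replicate 2, which was more than in 11 of the 16 genes with a peak in the window. The other pyruvate kinase gene, pyk-2, reached 20.6 within the gene. The phosphofructokinase genes, for the committed step of glycolysis, had no candidate in the window, and pfk-1.1 reached 27.5 within the gene while pfk-1.2 had none anywhere. ldh-1, for lactate dehydrogenase, held a candidate of 56.7 at 1451 bp into the gene, below the IDR list, matched in replicate 1 at 39.3 and not in replicate 2.

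The enzymes shared by glycolysis and gluconeogenesis had an IDR peak in the window in 5 of 11 genes, with pooled signals between 63.8 and 94.2. The 5 genes cover aldolase and each step from glyceraldehyde-3-phosphate dehydrogenase to enolase. gpd-2, a glyceraldehyde-3-phosphate dehydrogenase gene, had the highest signal of this role, 94.2, with 34.8 in replicate 1 and 64.9 in replicate 2. aldo-1, an aldolase gene, had 80.8, with 37.3 in replicate 1 and 42.0 in replicate 2. pgk-1, for phosphoglycerate kinase, had 78.1, with 41.1 in replicate 1 and 38.5 in replicate 2. The summits of aldo-1 and pgk-1 lay 109 and 87 bp upstream, between genes. ipgm-1, for the cofactor-independent phosphoglycerate mutase, had 77.3, with 36.9 in replicate 1 and 41.0 in replicate 2, at 81 bp upstream. enol-1, for enolase, had 63.8, with 22.3 in replicate 1 and 43.8 in replicate 2. Its summit lay 895 bp upstream, inside a coding exon of the neighbour mrpl-50.

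gpd-2 and gpd-3 are known to be transcribed together behind mai-1 as an operon, a run of genes read as a single transcript and cut apart by trans-splicing. The gpd-2 summit lay 561 bp upstream of gpd-2, in an intron of mai-1. mai-1, looked up after these values were seen, had an IDR summit of its own 5 bp upstream of its 5' end, with a signal of 60.5, at the lower end of the IDR list, and 27.9 in replicate 1 and 36.0 in replicate 2. The peak inside mai-1 was thus the stronger of the pair in both replicates. The candidates in the gpd-3 window, at 27.1 and 18.2, lay in coding exons of gpd-2. A candidate of 51.7 lay within gpd-3, with 15.9 in replicate 1 and 33.5 in replicate 2. gpd-1 had a single candidate in its window, at 46.1, matched in replicate 2 at 36.6 and not in replicate 1, and gpd-4 had none. These 4 genes are close copies, with repeated 31-base stretches over 68.5% of gpd-1, 67.9% of gpd-4, 40.8% of gpd-2 and 40.7% of gpd-3, so values inside them are uncertain. The gpd-2 IDR peak holds no such stretch. gpi-1, aldo-2 and tpi-1, for glucose-6-phosphate isomerase, the second aldolase and triosephosphate isomerase, had no candidate in the window and at most 31.9, 21.3 and 15.1 within the gene.

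Gluconeogenesis has 4 genes of its own here, and all had a candidate in the window, but only fbp-1 reached the IDR list. fbp-1, for fructose-1,6-bisphosphatase, had 60.8 in the pooled list, 31.1 in replicate 1 and 30.0 in replicate 2, at 244 bp upstream, close to the lowest IDR signal. pck-1, for phosphoenolpyruvate carboxykinase, had an IDR summit 604 bp into the gene, in an intron, with 75.9 pooled, 25.5 in replicate 1 and 49.6 in replicate 2. It also had a weaker candidate 928 bp upstream, with 52.6 pooled, 28.6 in replicate 1 and 27.2 in replicate 2. pck-2, its paralogue, had 55.8 at 71 bp downstream, matched in replicate 1 at 37.3 and not in replicate 2. Inside the gene pck-2 had 49.2 at 2905 bp, with 27.8 in replicate 1 and 22.0 in replicate 2. pyc-1, for pyruvate carboxylase, had 39.2 at 69 bp upstream, matched only in replicate 1, at 34.8, and 31.4 at 291 bp upstream, matched in both. Its strongest candidate lay 2104 bp into the gene, with 43.3 pooled, 20.9 in replicate 1 and 20.5 in replicate 2. The strongest window signals of this role thus ran from just above the IDR threshold at fbp-1 to well below it at pyc-1.

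In the pyruvate dehydrogenase complex, 1 of 4 genes had an IDR peak in the window. This was dld-1, for the dihydrolipoamide dehydrogenase subunit, which the oxoglutarate dehydrogenase and other complexes also use. It had 64.8 pooled, 32.0 in replicate 1 and 35.4 in replicate 2, at 280 bp upstream. pdha-1, for the E1 alpha subunit, had 32.4 at the downstream edge of its window, 14.2 in replicate 1 and 20.3 in replicate 2. pdhb-1 and dlat-1, for the E1 beta and E2 subunits, had no candidate in the window and no more than 10.3 and 18.4 within the gene.

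The TCA cycle genes here include related enzymes, such as aco-1 and the NADP-dependent idh-1 and idh-2, none of which had an IDR peak. An IDR peak lay in the window in 4 of the 13 genes, and these included the strongest peak of all 44 genes. The signals were widely spread, between 63.0 and 240.3 with a median of 145.4. idhg-1, for the gamma subunit of the NAD-dependent isocitrate dehydrogenase, had 240.3 pooled, 141.2 in replicate 1 and 100.3 in replicate 2, at 253 bp upstream. The start of the divergent neighbour mlcd-1 lay 414 bp from the same summit. idhb-1, for the beta subunit of the same enzyme, had 181.8 pooled, 75.7 in replicate 1 and 112.1 in replicate 2, at 20 bp upstream, in no other gene's window. idha-1, for the alpha subunit, had only 29.0 at 244 bp upstream, with 17.8 in replicate 1 and no match in replicate 2. The peaks at this enzyme were thus strong at 2 subunit genes and weak at the third.

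aco-2, for the mitochondrial aconitase, had 109.1 pooled, 44.9 in replicate 1 and 68.3 in replicate 2. The summit lay 314 bp upstream of aco-2 but 17 bp from the start of eef-1B.1, a translation elongation factor gene on the other side. fum-1, for fumarase, had 63.0 pooled, 27.0 in replicate 1 and 37.2 in replicate 2, at 22 bp downstream, in a coding exon. cts-1, for citrate synthase, had its IDR summit 650 bp into the gene in a coding exon, with 77.5 pooled, 42.1 in replicate 1 and 41.8 in replicate 2. In its window cts-1 had 47.9, with 22.9 in replicate 1 and 22.1 in replicate 2. The peak inside cts-1 was thus the stronger in each of the 3 lists.

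Of the 8 other TCA and related genes, idha-1 included, none reached the IDR list. idh-1, for an NADP-dependent isocitrate dehydrogenase, came closest with 57.7, matched in replicate 1 at 21.0 and not in replicate 2. A weaker idh-1 candidate 133 bp upstream had 32.4 pooled, 10.2 in replicate 1 and 37.3 in replicate 2. The malate dehydrogenase gene mdh-2 had 47.1, with 18.9 in replicate 1 and 20.8 in replicate 2. mdh-1, for the other malate dehydrogenase, had 33.7, with 20.0 in replicate 1 and no match in replicate 2. A weaker mdh-1 candidate 987 bp upstream had 16.9 pooled, 13.6 in replicate 1 and 11.6 in replicate 2. The subunits of oxoglutarate dehydrogenase had 45.1 at dlst-1 (E2), with 33.8 in replicate 1 and no match in replicate 2, and 15.6 at ogdh-1 (E1), matched in replicate 2 alone at 14.8. idh-2, for the second NADP-dependent enzyme, had 22.9, with 8.3 in replicate 1 and 14.3 in replicate 2. aco-1, for the cytosolic aconitase, had no pooled candidate in the window. Within the gene it had at most 21.8, with 8.8 in replicate 1 and 14.3 in replicate 2.

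icl-1 encodes both enzymes of the glyoxylate bypass, isocitrate lyase and malate synthase, in a single protein, and it carried 4 IDR peaks, the most of any of the 44 genes. The strongest had 161.3 pooled, 58.1 in replicate 1 and 104.5 in replicate 2. It lay 82 bp upstream, in a peak 850 bp wide, where most pooled peaks were 436 bp wide, and 215 bp from the start of the chemoreceptor gene srh-2. The remaining peaks lay in coding exons and were weak. The peak 1200 bp into the gene had 62.8 pooled, 52.0 in replicate 1 and 26.8 in replicate 2. The peak at 2696 bp had 63.8 pooled, 40.1 in replicate 1 and 36.8 in replicate 2. The peak at 1405 bp had 61.9 pooled and 25.1 in replicate 2, with no match in replicate 1. Its interval, chrV:726476-726736, overlaps that of the peak at 1200 bp, chrV:726698-726908, so these need not be separate sites. The 3 peaks inside the gene stand just above the threshold, and that at 1405 bp is the only IDR peak of the 44 genes not matched in both replicates.

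Of the 3 genes for storage sugars, 2 had IDR peaks in the window. gsy-1, for glycogen synthase, had a pair of them. The distal peak, 767 bp upstream, had 168.7 pooled, 96.2 in replicate 1 and 77.7 in replicate 2. The proximal peak, 123 bp upstream, had 97.0 pooled, 48.4 in replicate 1 and 47.9 in replicate 2. The distal peak was the stronger in each list, and gsy-1 was the only one of the 44 genes with more than 1 IDR summit in its window. tps-1, for a trehalose-6-phosphate synthase, had 114.1 pooled, 55.3 in replicate 1 and 59.4 in replicate 2, at 168 bp upstream. A second tps-1 peak lay in an intron 1516 bp into the gene, with 70.5 pooled, 31.5 in replicate 1 and 40.4 in replicate 2. tps-2, for the other trehalose-6-phosphate synthase, had 42.0 at 842 bp upstream, with 21.8 in replicate 1 and 22.2 in replicate 2, so the paralogues lay on different sides of the threshold in the pooled list.

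**Figure D2:**
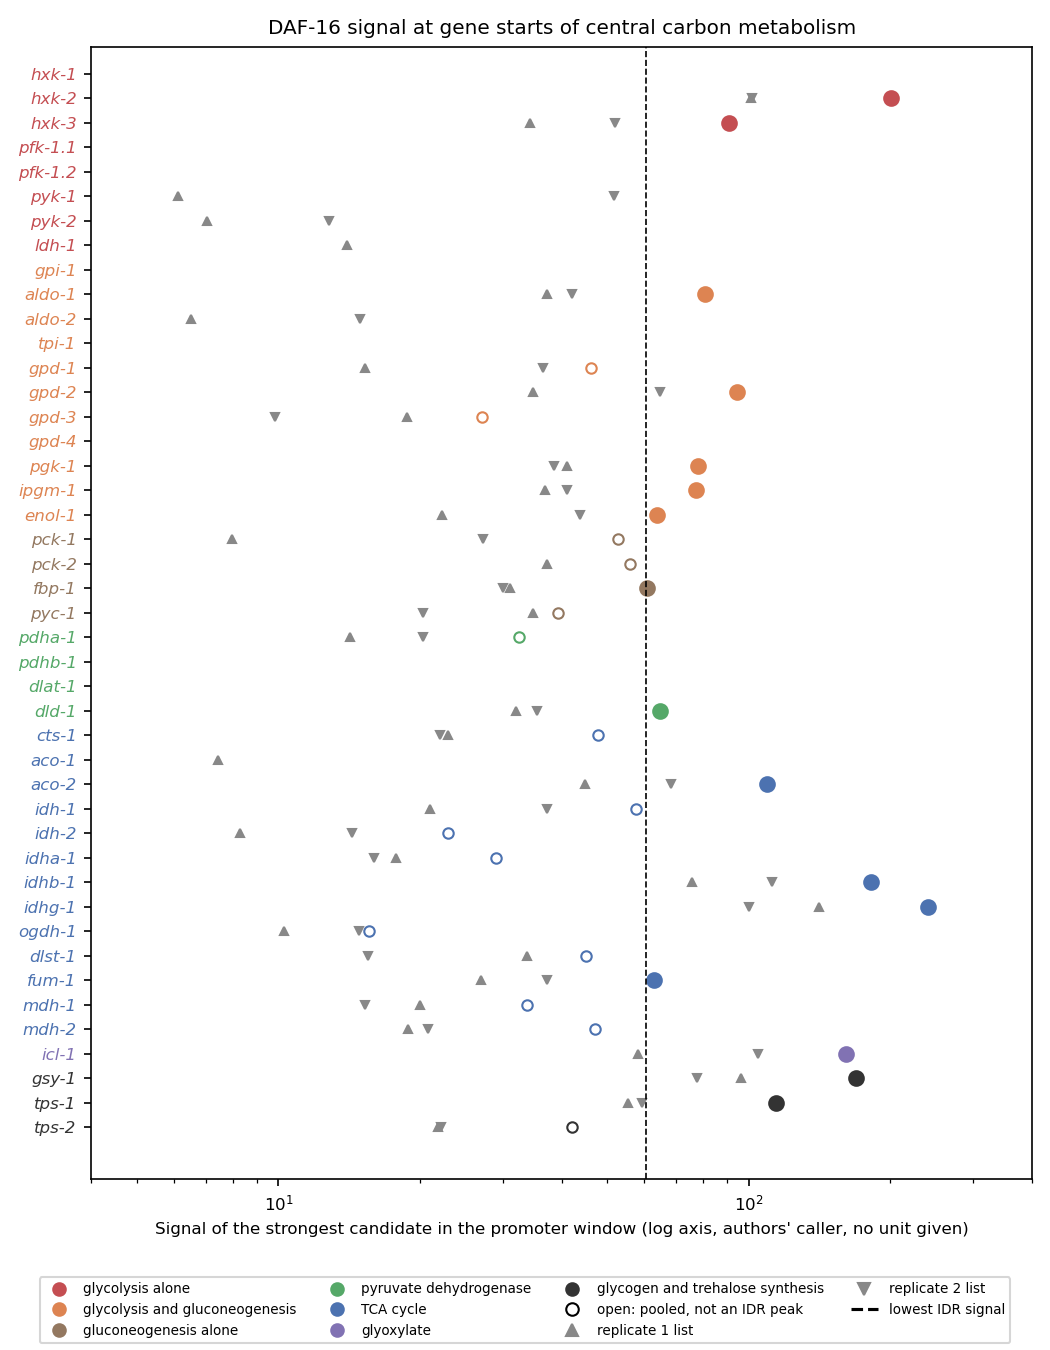
Signal of the strongest candidate in the promoter window of each gene (log axis): filled circles are pooled IDR peaks, open circles pooled candidates outside the IDR list, triangles the strongest candidates of the replicate lists in the same window, and the dashed line is the lowest IDR signal, 60.5. Circles right of the line belong to 16 genes, led by idhg-1 at 240.3 and hxk-2 at 200.2; rows without a circle had no pooled candidate.

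**Figure D3:**
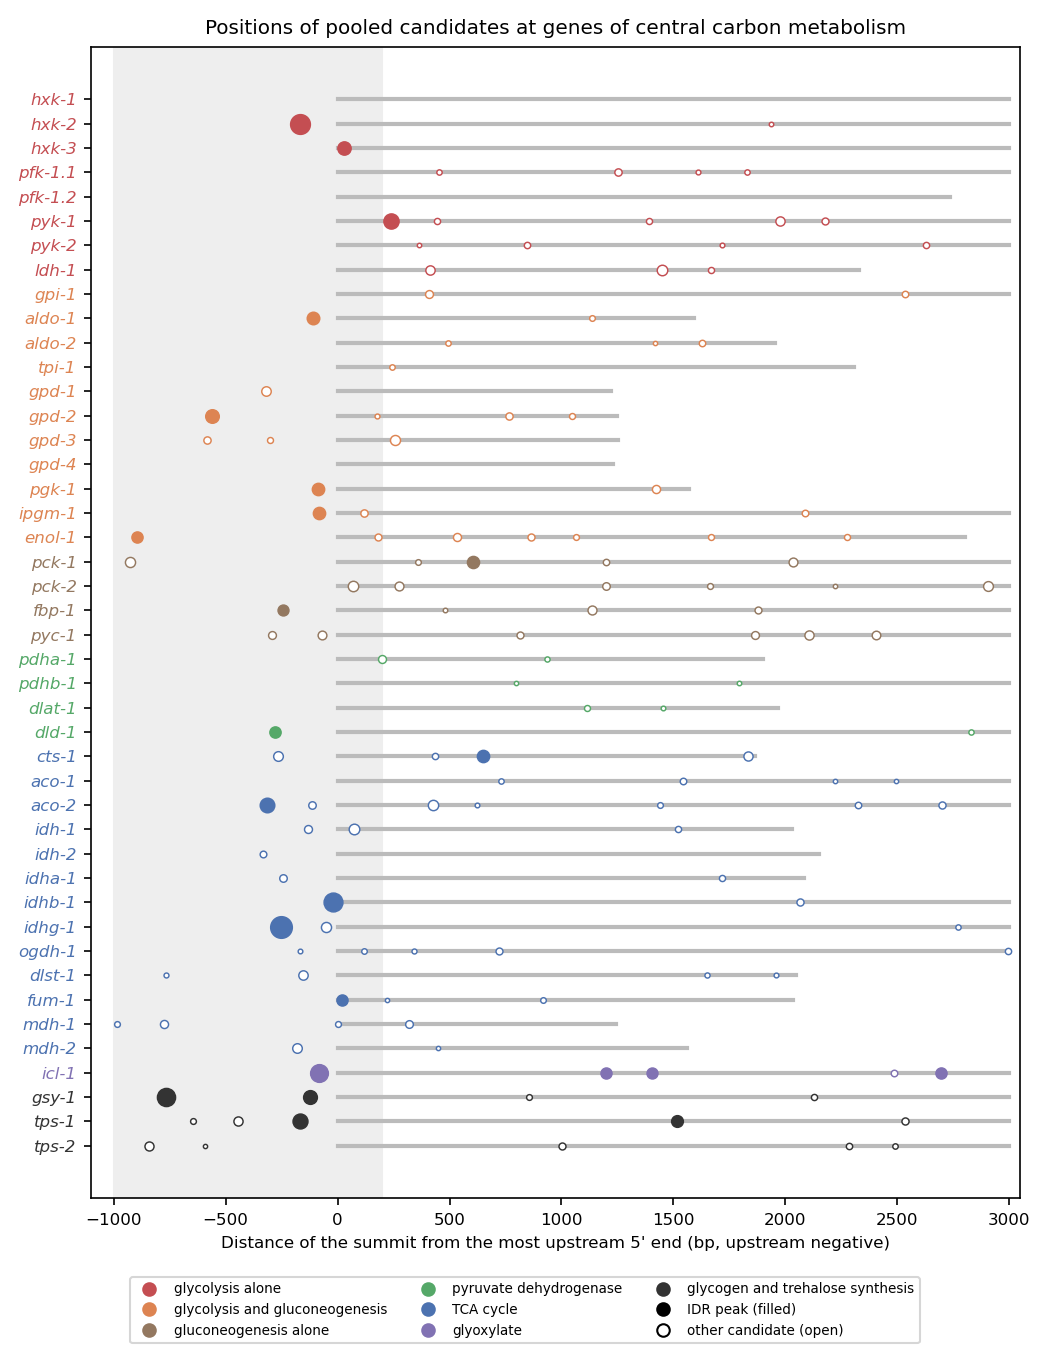
Distance of pooled summits from the most upstream 5' end of each gene (bp, upstream negative); filled circles are IDR peaks, open circles other candidates, circle area grows with signal, the shaded band is the promoter window and grey lines are gene bodies. Of the 17 filled circles in the band, 12 lie within 400 bp upstream of the 5' end, and pyk-1, pck-1, cts-1, icl-1 and tps-1 also have filled circles further inside the gene.

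Pyruvate dehydrogenase, TCA and glyoxylate genes, related enzymes included, are together called the TCA and glyoxylate group below. Not all act in mitochondria, aco-1 being cytosolic. Set side by side at the IDR threshold, this group and the sugar genes had peaks about as often. Glycolysis and gluconeogenesis together had 8 of 23 genes with an IDR peak in the window (34.8%, Wilson 95% interval 18.8 to 55.1), and pyruvate dehydrogenase, TCA and glyoxylate genes had 6 of 18 (33.3%, interval 16.3 to 56.3). With IDR peaks of at least the median signal the counts were less even, 2 of 23 and 4 of 18 in that order. The signals of genes with a peak had a median of 79.4 in glycolysis and gluconeogenesis and of 135.2 in the TCA and glyoxylate group. Their ranges overlapped almost wholly, 60.8 to 200.2 for glycolysis and gluconeogenesis and 63.0 to 240.3 for the TCA and glyoxylate group. In the replicate 1 list the same medians were 35.9 for glycolysis and gluconeogenesis and 51.5 for the TCA and glyoxylate group. In the replicate 2 list they were 42.9 for glycolysis and gluconeogenesis and 84.3 for the TCA and glyoxylate group. No test was made of this difference, since peaks above a threshold in 1 group of animals give no replicate error for it.

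Candidates of any strength were spread less evenly. A candidate lay in the window of 13 of 23 glycolysis and gluconeogenesis genes and of 15 of 18 pyruvate dehydrogenase, TCA and glyoxylate genes. None was found at 6 of 8 genes of glycolysis alone and at 4 of 11 genes shared by glycolysis and gluconeogenesis, while all 4 genes of gluconeogenesis alone had at least 1. In the TCA and glyoxylate group, 12 of 13 TCA genes and 2 of 4 pyruvate dehydrogenase genes had at least 1. In the 13 genes of all roles without a pooled candidate in the window, the replicate lists still held some at 5: pyk-1, pyk-2, ldh-1, aldo-2 and aco-1. At pyk-1 the replicate 2 summit fell inside the window with a signal of 51.8, close to the 51.9 of hxk-3 in the same list. The others were at most 14.9. A missing candidate means only that none was listed, and the weakest pooled candidate had a signal of 9.22.

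Nearly all of these peaks were found in both replicates. Of the 24 IDR peaks in windows or genes, 23 had a match in both replicates (95.8%), as did 95.0% of the 2540 IDR peaks on nuclear chromosomes. Part of this is built in, since IDR peaks are the strongest peaks of the same replicates pooled. The signal in replicate 2 over that in replicate 1 had a median of 1.11, between 0.516 for the icl-1 peak at 1200 bp and 1.96 for enol-1, and the median over all nuclear IDR peaks was 1.09. As the scale of the signal is not given, equal values in the replicate lists need not mean equal binding. The order at the top differed between the lists. idhg-1 led in replicate 1 with 141.2 and idhb-1 in replicate 2 with 112.1, and in replicate 2 the signals of icl-1, hxk-2 and idhg-1 lay between 100.3 and 104.5. When the 2563 strongest candidates of each replicate were taken apart, 13 of the 44 genes (29.5%) had a summit in the window in both, against 4.78% of all genes. All 13 were among the 16 genes with an IDR peak there; enol-1, fbp-1 and fum-1, with the weakest 3 window peaks, were not among them.

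**Figure D4:**
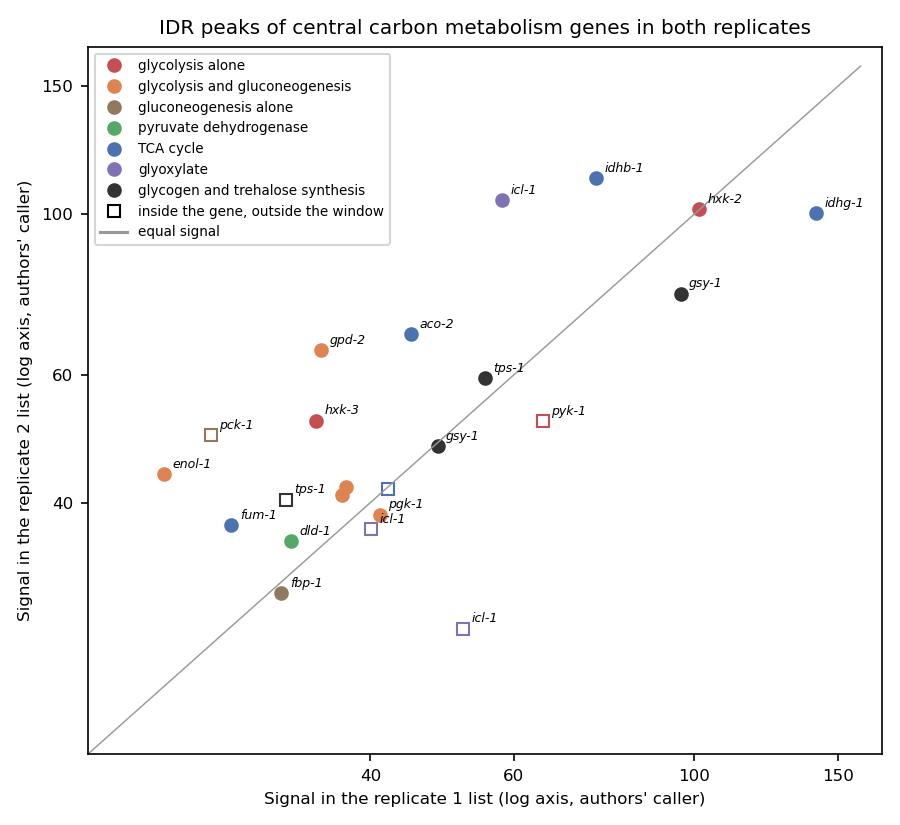
Signal in the replicate 2 list against signal in the replicate 1 list (both log axes) for the 23 IDR peaks of these genes matched in both; circles are peaks in promoter windows, squares peaks inside genes, colours give roles, and the grey line marks equal signal. idhg-1 lies lowest relative to the line among the strong peaks (141.2 in replicate 1, 100.3 in replicate 2), and icl-1 and idhb-1 lie above it; the unlabelled points near 40 are aldo-1, ipgm-1 and cts-1.

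The summits lay close to the gene starts. The 17 summits in windows had a median position 168 bp upstream, against 263 bp upstream for all genes, and 12 of the 17 (70.6%) lay within 400 bp upstream, against 59.7% for all genes. Of the 24 peaks, 13 lay between genes, 4 in introns, 6 in coding exons and 1 in a 5' untranslated region. The share in coding exons, 25.0%, compares with 4.41% of all nuclear IDR peaks, which also include peaks outside genes and promoter windows. Of the 6, 3 are the peaks inside icl-1, and those at 1200 and 1405 bp overlap. In promoter windows alone, 2 of 17 peaks (11.8%) lay in coding exons, against 2.76% of all nuclear IDR peaks in a promoter window. That of enol-1 lies in an exon of mrpl-50. Transcripts of many C. elegans genes begin upstream of the annotated 5' end because their leaders are removed by trans-splicing, so these distances are from the annotation and not from initiation sites.

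The DAF-16 binding element lay at a minority of the peaks. The search covered both strands up to 100 bp from the summit. The DAF-16 binding element, searched as GTAAACA or TGTTTAC, was found at 5 of the 24 peaks (20.8%), against 8.98% of all nuclear IDR peaks and 2.45% of the nuclear candidates outside the IDR list. These 5 are the peaks at idhg-1, ipgm-1 and fbp-1 in windows and at cts-1 and pck-1 inside the gene. GAGAGA or TCTCTC, a repeat common in C. elegans promoters, was found at 7 peaks (29.2%), all in windows, against 41.3% of all nuclear IDR peaks and 16.1% of the other candidates. Among peaks in promoter windows alone the share was 41.2% (7 of 17), against 40.4% of all nuclear IDR peaks in a promoter window. The 7 are the window peaks of icl-1, gpd-2, hxk-3, aldo-1, pgk-1 and ipgm-1 and the distal peak of gsy-1. The DAF-16 associated element, CTTATCA or TGATAAG, was found at idhg-1 alone, against 3.78% of all nuclear IDR peaks. The E-box CAGCTG was found at cts-1, enol-1 and the intron peak of tps-1 (12.5%), against 10.5%. No searched motif was found at 11 peaks, among them the strong peaks of hxk-2, idhb-1 and aco-2. A match is a description of the letters and not a tested site.

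Of these 5 binding elements, 3 were chosen for display after the motif results were seen. Each is printed with 17 bases to each side, on the strand of the gene and with the element in capitals, from WBcel235. The stretches are idhg-1 (+ strand, chrIII:4568594-4568634, element centred 70 bp from the summit), cts-1 (− strand, chrIII:10215943-10215983, 22 bp) and pck-1 (− strand, chrIII:65722-65762, 86 bp).
idhg-1: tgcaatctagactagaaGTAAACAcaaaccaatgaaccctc
cts-1: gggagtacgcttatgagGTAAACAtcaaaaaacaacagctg
pck-1: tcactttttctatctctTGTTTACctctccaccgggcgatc

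In the promoter windows the element also lay near candidates that stayed outside the IDR list, the idh-1 candidate of 57.7, the tps-1 candidate of 43.0 at 446 bp upstream and the enol-1 candidate of 24.9 at 179 bp downstream. Inside genes it lay near 2 weaker candidates, that of enol-1 at 17.3 and that of idha-1 at 19.3. None of the 24 peaks held a 31-base sequence found again in the genome, against 14.6% of all nuclear IDR peaks, and none lay within 500 bp of a gene for a tRNA, snoRNA, snRNA, rRNA, miRNA or lincRNA, against 14.1%. The median GC content within 100 bp of the summit was 45.5%, against 42.8%.

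The threshold cut through the weaker peaks of these genes. Just above the lowest IDR signal of 60.5 lay fbp-1 at 60.8, the icl-1 peaks at 61.9, 62.8 and 63.8, fum-1 at 63.0, enol-1 at 63.8 and dld-1 at 64.8. Just below it lay idh-1 at 57.7, ldh-1 at 56.7 inside the gene, pck-2 at 55.8, a second aco-2 candidate inside the gene at 54.9, the upstream candidate of pck-1 at 52.6 and a second idhg-1 candidate at 52.3. The step across the threshold, from the fbp-1 peak to the idh-1 candidate, is small beside the range of the peaks. The ce10 lists of the same authors hold 3353 IDR peaks, and with as many of the strongest ce11 candidates, also chosen after the data were seen, down to a signal of 49.6, 19 genes have a peak in the window, against 7.96% of all genes, with idh-1, pck-1 and pck-2 added.

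Position alone often does not give a peak to a single gene. At hxk-2, aco-2, idhg-1 and icl-1 the summit lay in the promoter window of a neighbour too, and at gpd-2 and enol-1 it lay inside a neighbour. Leaving out such summits, a choice made after the data were seen, left 10 of the 44 genes with an IDR peak, against 3.34% of all genes, and 3 of 18 in the pyruvate dehydrogenase, TCA and glyoxylate group. The 10 are hxk-3, aldo-1, pgk-1, ipgm-1, fbp-1, dld-1, idhb-1, fum-1, gsy-1 and tps-1.

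Other genes of the same metabolism had peaks at a like rate. Of 37 listed symbols, 34 were found in the annotation, and 12 of these (35.3%, Wilson 95% interval 21.5 to 52.1) had an IDR peak in the window, against 6.25% of all genes. They included some genes of the TCA enzymes succinyl-CoA synthetase and succinate dehydrogenase. Of the same enzymes, sdha-2, sdhb-1, sdhd-1, sucl-2 and sucg-1 were listed and had no IDR peak in the window or the gene. The strongest was at sucl-1, for a succinyl-CoA synthetase subunit, with 222.2 pooled, 114.9 in replicate 1 and 114.0 in replicate 2. The succinate dehydrogenase genes sdha-1 and mev-1 had 102.7 and 101.7, the sdha-1 peak within 500 bp of a snoRNA gene, and suca-1, for another succinyl-CoA synthetase subunit, had 140.1. Both regulators of pyruvate dehydrogenase on the list had peaks, the kinase gene pdhk-2 with 133.1 and the phosphatase gene pdp-1 with 123.0. In trehalose metabolism, the trehalase gene tre-1 had 118.4 and gob-1, for trehalose-6-phosphate phosphatase, had 106.0 in the window and 150.5 just inside the gene. tre-2 had IDR peaks inside the gene alone, at 118.3 and 99.1, and tre-3, tre-4 and tre-5, also listed, had none in either place. IDR peaks inside the gene alone also lay at pygl-1 (80.4 and 70.6), pccb-1 (92.6) and pcca-1 (64.5). gpdh-2, for glycerol-3-phosphate dehydrogenase, had 151.7. got-2.2, for an aspartate aminotransferase, had 118.6, and the propionate pathway genes mmcm-1 and mce-1 had 133.9 and 95.1. The summits of mev-1, pdp-1, tre-1 and mce-1 also lay in the promoter window of a neighbour, jmjd-4, ZK973.8, dad-1 and ndub-7 in that order. The median over the 12 genes with a window peak was 120.8, against 92.5 over the 16 genes above.

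For scale, 5 structural genes of body wall muscle, the tissue of the transgene, all had IDR peaks in the window, against 6.25% of all genes. They were picked with earlier results of these data known and are not a full list of muscle genes. The actin gene act-1 had 267.1 and the troponin T genes tnt-2 and mup-2 had 237.0 and 226.8, while the myosin gene unc-54 had 91.5 and the paramyosin gene unc-15 had 74.2. Of the 16 metabolic genes with a window peak, 12 had a top signal within this range. The median top signal was 226.8 over the 5 muscle genes and 92.5 over the 16 metabolic genes. Whether the signal at the metabolic genes came from muscle nuclei was not tested, since no tissue was separated.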

How the data were processed

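The data are peak lists of ChIP-seq from whole worms, in 2 biological replicates taken as 1 group, per the labels, which give the antibody as anti-GFP in the description and as daf-16 in the antibody field. The authors deposited a list per replicate, a list on pooled replicates and an IDR list, for ce11 and ce10. Each deposited list gives the signal of the caller, the summit position within each peak and a −log10 q-value. The last was not used. The sources used here do not give the aligner, the caller, their versions or the IDR threshold. No read counts were given, so depth and counting error are unknown.

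Summits on ce11 were assigned to Ensembl release 115 genes (WBcel235) with Python 3.11.15 and NumPy 2.4.6. Peaks of different lists were matched within 100 bp. Scripts were tested on simulated data. Wilson intervals used SciPy 1.17.1, at 95%. Figures used Matplotlib 3.10.9. The genes, lists, windows and alternatives were chosen with earlier results of these data known, and no set test was made. The text names every gene with an IDR summit in the window or gene, then those whose strongest candidate matched in both replicates, then the rest by group. Where a candidate outside the IDR list is named, its value serves as a description. The annotation used lacked 3 of the 37 other pathway symbols (gbe-1, ugp-1 and fgt-1). Windows of other sizes, other gene assignments, stricter peaks and single replicates were tried as alternatives.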

Additional observations from a re-analysis of the deposited data

How the results depend on the processing

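Counts and medians were held to 1.5 times the main value, and the share of all genes to its Wilson interval. By these limits, 44 of 60 alternative values stayed and 16 did not. The number of genes with an IDR peak in the window, 16 of 44, was 8 with IDR peaks of at least the median signal, where 3.27% of all genes had one, and 10 without summits shared with another gene, an alternative chosen after seeing the data. Glycolysis and gluconeogenesis, 8 genes, had 2 at the median signal and 5 without shared summits. Pyruvate dehydrogenase, TCA and glyoxylate, 6 genes, had 4 at the median signal and 3 without shared summits. Genes with an IDR summit in the window or the gene numbered 9 at the median signal, against 19. Candidates matched in both replicates were found at 17 genes when summits had to lie within 50 bp, against 26. Peaks with the binding element or GAGAGA numbered 7 within 50 bp of the summit, against 11.

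With a single replicate, the count of genes with a window peak was between 17 and 18, against 6.14% of all genes with either replicate. Without replicate 1, fbp-1 was lost and gpd-1, idh-1 and pyk-1 were added. Without replicate 2, enol-1 and fum-1 were lost and dlst-1, pck-2 and pyc-1 were added. A window from 500 bp upstream to 100 bp downstream gave 14 genes, against 4.62% of all genes, and a window from 2000 bp upstream to 500 bp downstream gave 20, against 8.93%. The share of all genes was 6.91% with every annotated 5' end, 4.91% with the nearest start only, 5.62% without peaks of repeated sequence, 7.96% with as many candidates as the ce10 list (also chosen after seeing the data) and 3.34% without shared summits. No paired analysis was possible because both replicates belong to the same group. Without read counts, the precision of a single signal cannot be given, and no control library was analysed here.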
